A study of Mus musculus with 20 samples.

Results

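The genes described here are 10 genes of the Paneth cell, chosen by symbol from the 55401 genes of the count table: Defa17, Defa21, Defa22, Defa24, Defa30, Lyz1, Mmp7, Itln1, Ang4, and Mptx2. They were followed through 20 RNA-seq libraries of WT and KO mice, with 2 libraries per genotype from each of 5 organs, namely heart, kidney, liver, spleen, and small intestine. The mice were 8-week-old females on the C57BL/6J background. The KO mice carried a CRISPR/Cas9 deletion of exons 3 and 4 of Nsun6, an RNA methyltransferase gene, in all cells of the body, the WT mice did not, and neither genotype was treated. No label says which stretch of the small intestine was taken or whether organs of the same number came from the same animal. The small intestine libraries held between 26414043 and 32121286 counts, and those of the other organs between 15897446 and 44508197. In bulk RNA of this kind, fewer Paneth cells and less RNA in each of them cannot be told apart.

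Paneth cells sit at the base of the crypts of the small intestine, next to the stem cells, and release granules of antimicrobial proteins into the crypt. They are known to be more frequent toward the ileum. The Defa genes encode alpha-defensins, also called cryptdins, small peptides that damage bacterial membranes. Mmp7 encodes matrilysin, the protease that cuts the defensin precursors into their active form in mice. Lyz1 encodes the Paneth cell lysozyme, an enzyme that breaks the bacterial cell wall, and its paralog Lyz2 encodes the lysozyme of macrophages and neutrophils. Itln1 encodes intelectin, a lectin for microbial sugars, Ang4 an antimicrobial member of the ribonuclease family, and Mptx2 a mucosal pentraxin.

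In GRCm38, the 5 Defa genes lie on the plus strand of chromosome 8 between 21025545, the start of Defa21, and 21735471, the end of Defa24, and each has 2 exons. Their coding sequences all have 282 bases and fall into a pair of types. Defa21 and Defa22 differ at 2 of the 282 bases (99.3% identity). Defa24 and Defa30 differ at 4 bases (98.6%), and Defa17 differs from Defa30 at 8 bases (97.2%). Across the types, Defa21 and Defa24 differ at 60 bases (78.7%). The coding sequences of Defa21, Defa22, and Defa24 are shown because the types behaved differently in the libraries described next, with the bases that differ from Defa21 in capitals.
Defa21: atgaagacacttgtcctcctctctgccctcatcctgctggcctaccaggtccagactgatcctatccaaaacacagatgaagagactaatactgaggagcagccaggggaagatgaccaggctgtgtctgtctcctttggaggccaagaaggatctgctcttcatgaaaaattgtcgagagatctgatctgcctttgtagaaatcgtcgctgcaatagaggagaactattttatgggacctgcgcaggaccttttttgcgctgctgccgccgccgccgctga
Defa22: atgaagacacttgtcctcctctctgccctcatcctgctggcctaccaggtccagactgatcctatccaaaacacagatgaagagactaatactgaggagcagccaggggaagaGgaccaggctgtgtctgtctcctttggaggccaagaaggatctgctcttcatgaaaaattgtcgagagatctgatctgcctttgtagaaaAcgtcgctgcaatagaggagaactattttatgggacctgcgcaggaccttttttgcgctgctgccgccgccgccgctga
Defa24: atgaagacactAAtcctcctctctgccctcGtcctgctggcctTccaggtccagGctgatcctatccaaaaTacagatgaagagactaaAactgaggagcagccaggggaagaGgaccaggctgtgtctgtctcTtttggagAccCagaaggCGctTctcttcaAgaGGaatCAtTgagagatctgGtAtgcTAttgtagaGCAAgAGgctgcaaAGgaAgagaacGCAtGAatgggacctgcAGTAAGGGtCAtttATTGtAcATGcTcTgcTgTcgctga

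RefSeq sequences upstream of the start were matched for 8 of the 10 genes in GRCm38.p6, and Defa17 and Defa24 were not among them. Below are 120 bases of the plus strand for Defa21 (chr8:21025425-21025544), Defa22 (chr8:21162157-21162276), Defa20, another Defa gene (chr8:21509138-21509257), and Defa30 (chr8:21134500-21134619). The Defa30 stretch was moved 30 bases upstream of the RefSeq start so that its TATAAA falls in the same place. Capitals mark ATCAAAG, the core recognized by factors of the TCF family, and TATAAA, both searched on both strands after the sequences had been viewed.
Defa21: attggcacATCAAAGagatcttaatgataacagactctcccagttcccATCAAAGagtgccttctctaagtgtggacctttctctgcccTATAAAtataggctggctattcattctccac
Defa22: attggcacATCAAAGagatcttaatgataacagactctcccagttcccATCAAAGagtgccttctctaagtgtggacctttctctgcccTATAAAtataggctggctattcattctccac
Defa20: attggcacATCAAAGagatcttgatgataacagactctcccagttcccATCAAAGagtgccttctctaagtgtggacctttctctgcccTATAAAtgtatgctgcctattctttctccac
Defa30: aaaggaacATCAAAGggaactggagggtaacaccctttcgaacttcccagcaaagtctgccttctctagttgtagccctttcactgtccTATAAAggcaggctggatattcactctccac
The stretches of Defa21 and Defa22 were identical, Defa20 differed from them at 5 bases, and Defa30 at 29. Defa21, Defa22, and Defa20 each held ATCAAAG at 2 places, whereas Defa30 held it at 1. That place began 142 bases upstream of the RefSeq start, so the 120 bases next to the start of Defa30 held none. Defa38, a further Defa gene, had no ATCAAAG within 250 bases. Of the upstream sequences of all 32851 starts in the table, 1.43% held ATCAAAG within 120 bases and 3.21% within 250 bases. TATAAA stood in 6.34% within 120 bases. In the other members it was found in Mmp7, at 1 of its starts within 120 bases, while its other start had ATCAAAG within 250 bases. Lyz1, Itln1, Ang4, and Mptx2 held neither sequence within 250 bases. A match of letters describes the sequence and not the binding of a factor.

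Genes of the distal and proximal intestine differed between the small intestine replicates in the same direction in both genotypes. All small intestine values below come from these libraries. Not every list differed in the same direction in both genotypes. The B cell genes of the spleen list had median log2 ratios of replicate 2 to 1 of -7.04 in WT and 4.50 in KO. Fabp6, the ileal bile acid binding protein, was at 6810 and 6261 CPM in WT and KO replicate 1 and at 0.238 and 0.412 CPM in replicate 2, where CPM denotes counts scaled to library size by TMM normalization. Slc10a2, the ileal bile acid transporter, was at 2563 and 4037 CPM in replicate 1 and at 4.60 and 8.25 CPM in replicate 2. Fabp1, the fatty acid binding protein of the proximal intestine, ran the other way, with 10.8 and 138 CPM in replicate 1 and 5623 and 7105 CPM in replicate 2. The other genes among the 3 most abundant of each list had smaller ratios of replicate 2 to 1, with log2 values of -1.74 in WT and -1.93 in KO for Slc51a, 1.70 and 1.01 for Slc5a1, and 2.18 and 1.86 for Ckmt1. All 10 genes of the distal list with a ratio in both genotypes were lower in replicate 2 in both, and all 10 of the proximal list were higher. Of all 17034 genes with a ratio, 6140 were lower and 5458 higher in both. The lists were chosen with earlier results of these data known, so these counts describe them and add no support. In these lists the number of the replicate went together with genes of the intestinal segment, and the segment of each library cannot be told apart from its number. These ratios are given without a test, since the labels do not make the number a condition.

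Together the 10 genes took 0.825% of all counts in WT replicate 1 and 0.390% in KO replicate 1, against 0.0369% and 0.0771% in WT and KO replicate 2. Per length, in TPM (counts divided by exon length and scaled to a common total), they summed to 36936 and 20213 in replicate 1 of WT and KO and to 1472 and 3084 in replicate 2. The 5 Defa genes made up between 62.2% (KO replicate 2) and 77.1% (WT replicate 1) of the summed TPM.

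Defa24 was the highest of the 10 genes per length in all 4 libraries. It ranked 7 and 8 among all genes by TPM in WT and KO replicate 1, and 180 and 98 in replicate 2. In CPM, Defa24 was at 1498 and 135 in WT replicates 1 and 2 and at 1001 and 218 in KO replicates 1 and 2. Defa30 was at 894 and 56.6 CPM in WT and at 659 and 112 in KO. Both genes were high in replicate 1 and still well above the other organs in replicate 2. Defa17, of the same type, was far lower, with 33.1 and 2.90 CPM in WT and at 50.0 and 7.26 in KO. Of all stretches of 100 bases in the Defa17 transcript, 90.6% also occur in Defa3 or Defa30, and reads that map to several genes are not counted by default, so the level of Defa17 is uncertain. Among such stretches, 0.334% of Defa30 and none of Defa24 are shared with another gene.

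Defa21 and Defa22 differed far more between the replicates. Defa21 was at 916 CPM in WT replicate 1 and 161 in KO replicate 1, but at 1.23 and 0.660 CPM in replicate 2, on 31 and 16 counts. Defa22 was at 884 and 205 CPM in WT and KO replicate 1 and at 0.754 and 0.577 CPM in replicate 2, on 19 and 14 counts. Thus the ratio of Defa24 to Defa21 per length was 1.63 in WT replicate 1 and 6.18 in KO replicate 1, whereas it was 109 and 329 in replicate 2. Within the Defa24 type the ratios spanned a smaller range. Defa24 stood at 1.59 and 1.44 times Defa30 per length in WT and KO replicate 1 and at 2.26 and 1.84 times in replicate 2. It stood at 42.9 and 18.98 times the uncertain level of Defa17 in replicate 1 and at 44.0 and 28.4 times in replicate 2. Defa21 and Defa22 share 40.4% and 40.3% of their 100-base stretches with each other, and reads on these stretches may have been left out for both.

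Mmp7, the defensin-processing protease, was at 76.9 and 5.12 CPM in WT replicates 1 and 2 and at 20.9 and 3.75 in KO. Its exons share 123 bases with the gene AV064505, and reads there could be left out. Among the other antimicrobial genes, Lyz1 was at 2332 and 104 CPM in WT and at 499 and 180 in KO. Itln1 was at 676 and 81.9 CPM in WT and at 434 and 177 in KO. For each of these genes the libraries of replicate 1 were the higher ones, and WT replicate 1 was the highest. Mptx2 was at 235 and 2.78 CPM in WT and at 57.0 and 4.0 in KO. Ang4 had another order, with 160 and 26.5 CPM in WT and at 763 and 137 in KO, so that KO replicate 1 was highest and KO replicate 2 lay just below WT replicate 1.

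**Figure D1:**
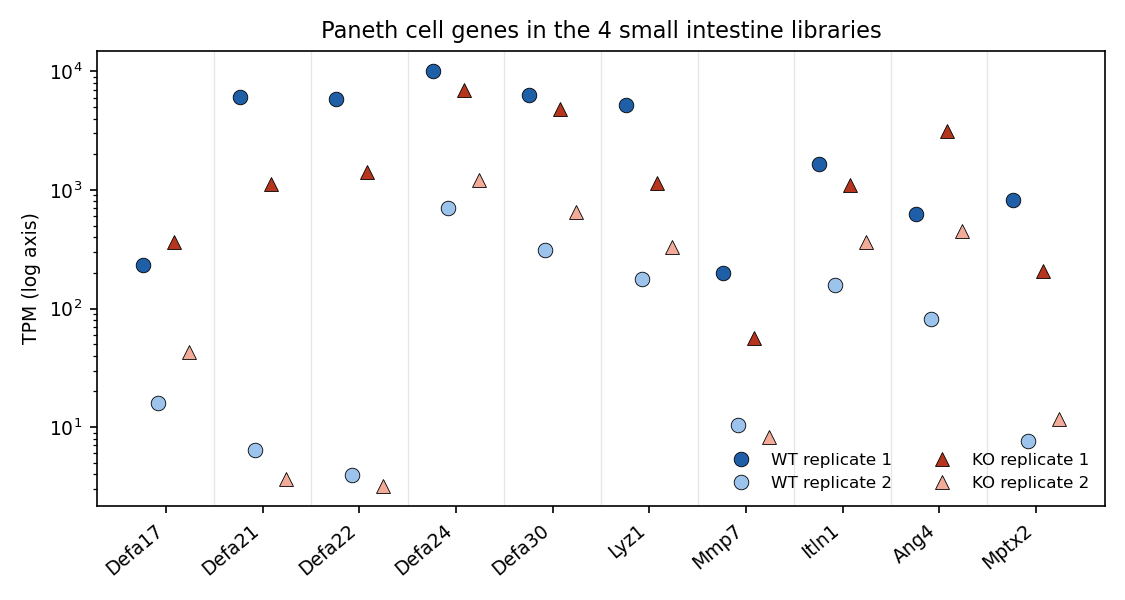
TPM of the 10 Paneth cell genes (horizontal axis) on a log axis in each small intestine library, with circles for WT and triangles for KO, dark for replicate 1 and light for replicate 2. Replicate 2 lies below replicate 1 of the same genotype for every gene, and the replicates are furthest apart for Defa21, Defa22, and Mptx2.

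All 10 genes were lower in replicate 2 than in replicate 1 in both genotypes, against 36.0% of all genes with a ratio. The log2 ratio of replicate 2 to replicate 1 had a median of -3.94 in WT and -2.52 in KO, where all genes stood at -0.03 and -0.04. Defa22 had the lowest ratios, -10.19 in WT and -8.47 in KO, and Defa21 followed at -9.54 and -7.93. Mptx2 came next, at -6.40 and -3.83. The other 7 genes lay between -4.49 (Lyz1) and -2.59 (Ang4) in WT and between -2.78 (Defa17) and -1.29 (Itln1) in KO. Ang4 had nearly equal ratios in WT and KO, -2.59 and -2.48, whereas those of Lyz1 were -4.49 and -1.47. The distal list had medians of -3.20 and -3.72, and the proximal list 6.59 and 5.58.

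The goblet cell list, of the other large secretory lineage, had median ratios of -0.55 in WT and -0.76 in KO, and its summed level was 17372 and 13896 CPM in WT replicates 1 and 2 and 12297 and 11028 in KO. Of its 12 genes, 8 were lower in replicate 2 in both genotypes. Its 3 most abundant genes had ratios of -0.03 in WT and 0.60 in KO for Zg16, -0.41 and -0.59 for Clca1, and -0.09 and 0.14 for Tff3. The crypt and stem cell list had medians of -1.06 and -0.51, and of its 10 genes, 8 were lower and 2 higher in replicate 2 in both genotypes. Olfm4 was at 258 and 70.3 CPM in WT and at 83.7 and 73.4 in KO. Slc12a2 was at 147 and 79.8 CPM in WT and at 105 and 59.4 in KO, whereas Rnf43 was higher in replicate 2, with 15.4 and 99.3 CPM in WT and with 13.7 and 63.1 CPM in KO. The list of Paneth cell regulators and niche genes had medians of -0.11 and 0.05. Of its 29 genes, 10 were higher and 10 lower in replicate 2 in both genotypes. Slc30a2, among its 3 most abundant genes, was higher in replicate 2 in both. In it, Xbp1, a factor of the secretory pathway, was at 275 and 255 CPM in WT and at 184 and 250 CPM in KO. Fzd5, a Wnt receptor that Paneth cell maturation needs, was at 104 and 74.9 CPM in WT and at 110 and 76.9 CPM in KO. Many of these regulators are also used by other cells of the epithelium, so their levels do not count Paneth cells.

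**Figure D2:**
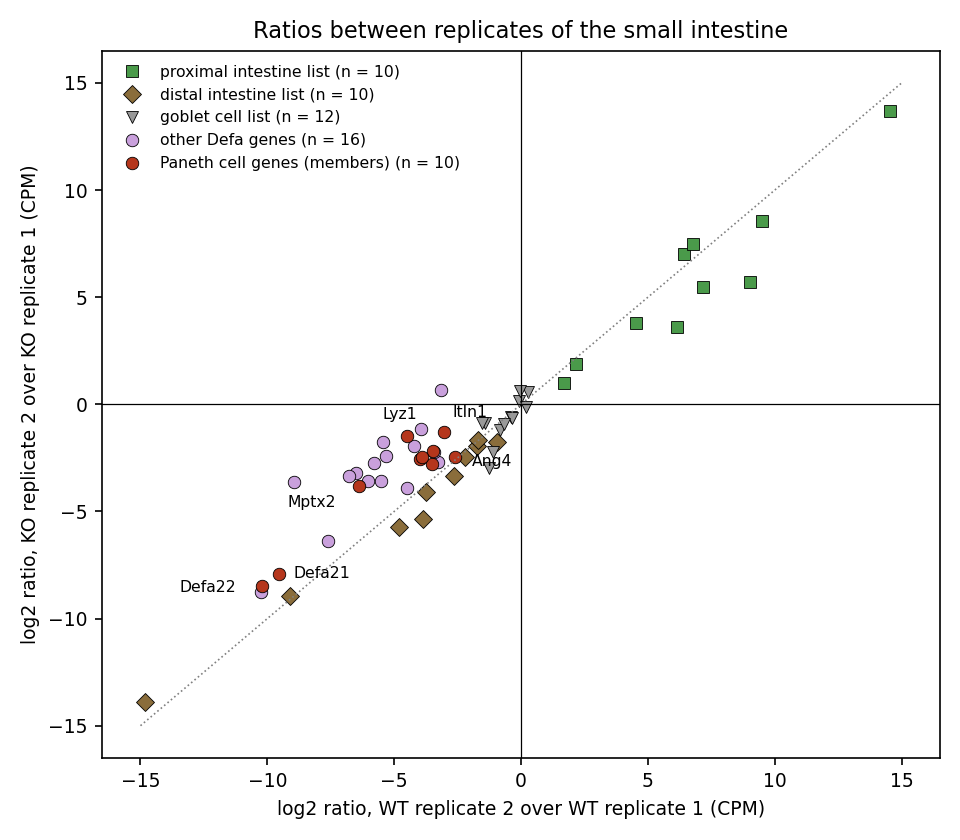
Log2 ratio of CPM in replicate 2 over replicate 1 of the small intestine, in WT (horizontal axis) and KO (vertical axis), one point per gene, with the dotted line where both are equal. The 10 members lie at the lower left with the distal list, and among the members Defa21 and Defa22 lie furthest down. The proximal list lies at the upper right, and goblet cell genes lie between -1.55 and 0.26 in WT and between -2.98 and 0.60 in KO.

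For the comparison of KO with WT in the small intestine, none of the 10 genes passed the test. With edgeR's quasi-likelihood test and Benjamini-Hochberg adjustment over 17680 genes, DEGs being genes that changed over 2-fold at an adjusted p under 0.1, 0% of all genes were DEGs and 0 of 10 members. None of the 10 had an unadjusted p under 0.05 in edgeR's test. Few of all genes did, 422 of 17680, so this does not set the 10 apart. DESeq2 called 36 genes higher and 15 lower but none of the 10. The values of KO and WT overlapped for all 10 genes, whereas they did not overlap for 25.2% of all genes tested. For all 10, replicates 1 and 2 lay apart within both genotypes, so the overlap does not show that the genotypes are alike. On simulated counts with the common spread of these libraries, edgeR's test recovered 0 of 188 genes changed 4-fold and 48 of 194 changed 8-fold. The simulation gave every gene the same spread and held no difference between replicate numbers. The 10 genes differed strongly between replicates, so these rates do not hold for them. DESeq2 recovered 18 of 200 genes changed 4-fold, with 21 false calls.

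The fitted log2 fold change was negative for 8 genes and positive for 2, with a median of -1.13 beside 0.00 for all genes. Ang4 had the smallest unadjusted p of the 10, with a fitted value of 2.21 (adjusted p = 0.9999 in edgeR's quasi-likelihood test, standard error 1.23). It was higher in KO at both replicate numbers, by 2.25 and 2.37 on the log2 scale. Defa17 was also higher at both, with a fitted value of 0.61 (standard error 1.40). Defa21, Defa22, and Mmp7 were lower in KO at both numbers, with fitted values of -2.56 (standard error 3.13), -2.16 (standard error 3.21), and -1.79 (standard error 1.47). The other 5 genes, Defa24, Defa30, Lyz1, Itln1, and Mptx2, were lower in KO among the replicate 1 libraries and higher among the replicate 2 libraries. Lyz1 had a fitted value of -1.89 (standard error 1.5) and Mptx2 of -2.02 (standard error 2.13). Leaving out a library turned the sign of all genes but Ang4. Without WT replicate 1 all 10 values were positive, from 1.21 to 7.02, and without KO replicate 1 they were negative for 9 of the 10, down to -9.58 for Defa22, with Ang4 at 0.54. Without KO replicate 2, Defa24 (0.20), Defa30 (0.38), and Itln1 (0.10) were positive, and without WT replicate 2, Defa17 was at -0.29. With a replicate block in the model, the values were -0.76 for Lyz1, -0.92 for Mptx2, and 0.01, 0.23, and 0.19 for Defa24, Defa30, and Itln1.

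**Figure D3:**
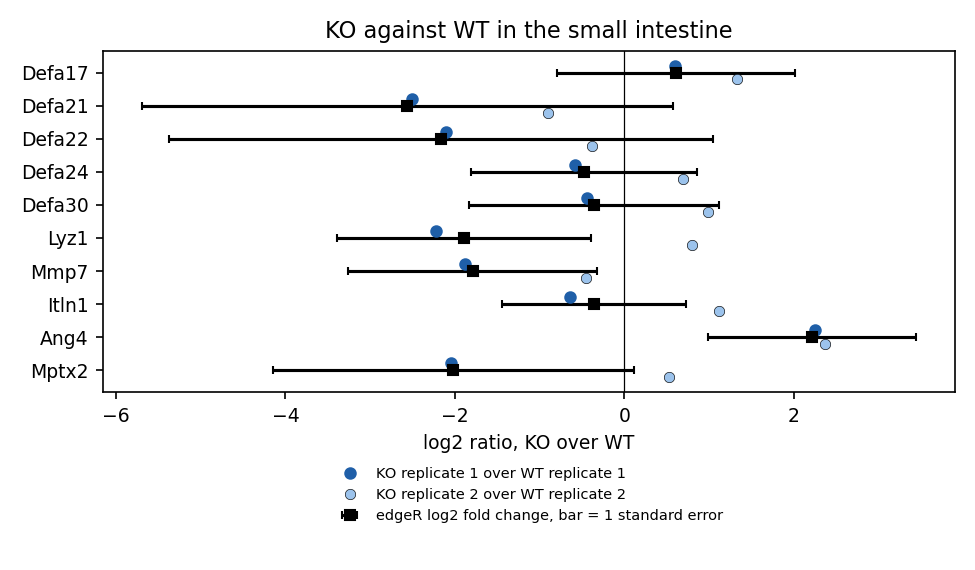
Log2 ratio of KO over WT in the small intestine for the 10 genes, with black squares for the edgeR value, bars of 1 standard error, and circles for KO over WT within replicate 1 (dark) and replicate 2 (light). For 5 genes the circles lie on opposite sides of 0, and for Ang4 both lie above 2.

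Other gene lists also differed between the small intestine libraries. The enterocyte list summed to 21816 and 43167 CPM in WT replicates 1 and 2 and to 32935 and 48776 CPM in KO. This sum was higher in replicate 2, where the Paneth cell genes were lower, but the genes of the list were divided. Of its 12 genes, 6 were higher and 4 lower in replicate 2 in both genotypes, with median log2 ratios of 0.64 in WT and 0.0018 in KO. The plasma cell list summed to 1154 and 2651 CPM in WT and to 312 and 4083 CPM in KO. Its median log2 ratios were -0.17 in WT and 3.69 in KO. Of its 7 genes, 3 were higher and 1 lower in replicate 2 in both genotypes. The tuft and enteroendocrine list summed to 129 and 186 CPM in WT and to 278 and 264 CPM in KO, and its genes were divided. Dclk1, Trpm5, and Pou2f3 had log2 fold changes of 2.05, 2.39, and 3.13, whereas the others lay between -0.70 (Gcg) and 0.41 (Sct). None of them was a DEG. Among the 7 smooth muscle genes, the median of the log2 fold changes was 2.13, beside 0.00 for all genes, and none was a DEG. All 7 had an unadjusted p under 0.05 in edgeR's quasi-likelihood test, against 422 of the 17680 genes tested. KO lay above both WT values for all 7, against 2665 of the genes tested. The summed level of the 7 genes was 323 and 485 CPM in WT and 2667 and 1495 CPM in KO. Des, the most abundant of them in the mean over the libraries, was at 71.6, 112, 706, and 299 CPM in WT 1, WT 2, KO 1, and KO 2. Actg2 was at 48.5, 80.9, 634, and 232 CPM and Myh11 at 72.2, 89.3, 409, and 322 CPM in the same order. The B cell genes of the spleen list summed to 344 CPM in WT replicate 1, against 9.36, 1.78, and 56.1 CPM in WT replicate 2, KO replicate 1, and KO replicate 2. The heart list reached 237 CPM in KO replicate 1 and 6.95 to 24.5 CPM in the other libraries. The median log2 fold change was -0.40 for the goblet list and -0.37 for the crypt and stem cell list, with no DEG. The part of these differences in the values of the Paneth cell genes was not tested.

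Against the other organs, all 10 genes were higher in the small intestine. In a contrast of the 2 small intestine groups with the mean of the 8 groups of other organs, 10 of 10 were called higher, with adjusted p from 1.67e-08 (Lyz1) to 0.000152 (Defa22) in edgeR's quasi-likelihood test. Of all 23159 genes tested, 24.6% were called higher. Genes near 0 elsewhere, as 9 of the 10 were, passed the filter on low counts through the small intestine libraries, so these calls describe the genes and add no support. The 10 were also called higher against each organ on its own, where 27% of all genes were called higher against the liver, 24.1% against the spleen, 23.2% against the kidney, and 27.7% against the heart. These contrasts share the small intestine libraries. For every gene, the lowest of the 4 small intestine libraries lay above the highest of the 16 others. For Defa21 and Defa22 this gap was narrow, since their lowest small intestine values of 0.660 and 0.577 CPM stood near 0.461 CPM in kidney WT replicate 1 and 0.474 CPM in liver WT replicate 1.

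Apart from Lyz1, the genes were close to absent outside the intestine. Itln1 had 15 counts and Ang4 16 counts in the 16 other libraries together, Mptx2 had 12, and Defa17 had 2. The mean CPM of Itln1 in the small intestine was 11227 times its pooled CPM elsewhere, with an exact Poisson 95% interval of 6807 to 20060 for counting error alone. For Defa24, which had 91 counts elsewhere, the ratio was 3856 (3140 to 4789). Defa30 had no count in the 4 heart libraries. Against a floor of 3 counts per library, even its lowest small intestine library was at least 401-fold higher, and that of Itln1, also without a count in the heart, at least 580-fold. By the mean over the small intestine libraries, Mmp7 had the smallest ratio of these genes, 137 (112 to 169), on 96 counts spread over the liver, spleen, and kidney. These ratios depend on the replicate 1 libraries. Without WT replicate 1 they were 7579 for Itln1, 2439 for Defa24, and 50.8 for Mmp7, and in the lowest small intestine library they were 2687, 727, and 19.2. In their lowest library, Defa21 and Defa22 had smaller ratios than Mmp7, 6.25 and 6.46. The few counts outside the intestine were uneven among libraries. Of the 9 genes without Lyz1, spleen KO replicate 1 held 104 counts, spleen WT replicate 1 held 93, kidney WT replicate 1 held 47, and liver WT replicate 1 held 41, whereas the other 12 libraries held 0 to 18 each. Of the 361 counts in all, 81.4% were in libraries of replicate 1, as were 211 of the 222 counts of the 5 Defa genes. The source of these counts was not tested.

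**Figure D4:**
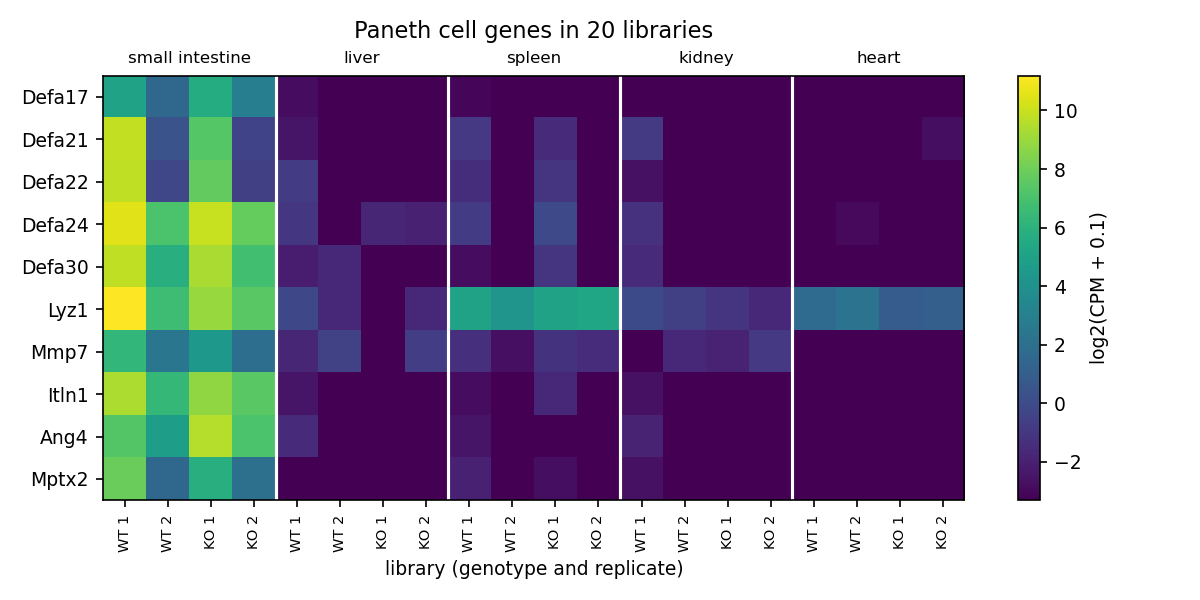
Heat map of log2(CPM + 0.1) for the 10 genes (rows) in the 20 libraries (columns, by organ, genotype, and replicate). The small intestine columns are the bright ones, alternating between replicates 1 and 2, and Lyz1 is the one gene with a clear level outside, in the spleen and faintly in the heart.

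Lyz1 was the exception, with 32.1 and 18.7 CPM in WT spleen and 32.1 and 37.2 CPM in KO spleen. In the heart it was at 3.30 and 4.43 CPM in WT and at 1.80 and 1.97 in KO, and in the liver and kidney below 1 CPM in every library. The macrophage paralog Lyz2 was high in the same organs, with 1159 to 1606 CPM in the spleen. Per length, Lyz1 was 1.69% to 2.47% of Lyz2 in the spleen and 0.332% to 1.23% in the heart. In the liver, where Lyz2 was at 176 to 200 CPM, Lyz1 was 0% to 0.468% of it, and in the kidney 0.485% to 2.53%. In the small intestine it was 15.4 and 20.1 times Lyz2 in WT and KO replicate 1 and 1.39 and 1.64 times in replicate 2. The coding sequences of the pair are 95.1% identical, and 2.06% of the 100-base stretches of Lyz1 also occur in Lyz2. Lyz2 itself was at 158 and 77.6 CPM in WT small intestine and at 25.9 and 114 CPM in KO. It was the most abundant gene of the macrophage list there, which summed to 222 and 158 CPM in WT and to 67.2 and 250 CPM in KO. The genes of this list had median log2 ratios of replicate 2 to 1 of 0.26 in WT and 1.89 in KO. Of its 10 genes, 7 were higher and 2 lower in replicate 2 in both genotypes.

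Few of the genes could be compared between genotypes outside the intestine. After the filter on low counts, Mmp7 was tested in the liver, Defa22, Defa24, Lyz1, and Mmp7 in the spleen, and Lyz1 in the kidney and heart, and none was a DEG. DEGs made up 0.0509% of liver genes tested, 0.223% of spleen genes, and 0% of those of the kidney or heart. For Lyz1, the log2 fold change in the spleen was 0.49 (standard error 0.25). It was -1.38 (standard error 0.78) for the kidney and -1.05 (standard error 0.45) for the heart.

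Other alpha-defensin genes were also found mainly in the small intestine, and most of those with a ratio in both genotypes were lower in replicate 2. The table holds 40 other genes whose symbol starts with Defa, 31 of which had a count in the small intestine and 23 of which passed the filter there. Outside the intestine, the 40 genes summed to below 1 CPM in every library. None of the 23 was a DEG between genotypes. Of the 16 with a ratio in both genotypes, 15 were lower in replicate 2 in both, with medians of -5.49 in WT and -2.98 in KO. Some of these ratios rest on few counts in WT and KO replicate 2, such as 1 and 2 for Defa36 and 2 and 8 for Defa-ps6. Such genes passed the filter through the replicate 1 libraries, which favors lower values in replicate 2. Defa38 had the highest level, 618 and 40.6 CPM in WT and 251 and 113 CPM in KO. Defa20, whose upstream sequence is shown beside that of Defa21, was at 433 and 109 CPM in WT and KO replicate 1 and at 0.357 and 0.247 CPM in replicate 2. Its log2 ratios of -10.24 and -8.78 were close to those of Defa22. However, 99.7% of the 100-base stretches of Defa20 occur in other Defa genes, so its level is uncertain. Defa39 was the exception, at 239 and 27 CPM in WT but 39.3 and 62.3 CPM in KO. Defa29 was at 191 and 2.1 CPM in WT and at 24.8 and 2.64 in KO, and Defa34 at 98.5 and 0.198 CPM in WT and at 10.6 and 0.866 in KO.

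Of the 29 regulators and niche genes, 17 were called higher and 2 lower in the small intestine than in the mean of the other organs, against 24.6% and 15.9% of all genes. None was a DEG between genotypes. Mptx1, the paralog of Mptx2 with a coding sequence 92% identical, was at 0.639 and 2.74 CPM in WT and at 69.4 and 13 CPM in KO. Its log2 fold change was 4.56 (standard error 1.21, adjusted p = 0.9999 in edgeR's quasi-likelihood test). Mptx2 did not follow it, with 57.0 and 4.0 CPM in KO. Between these paralogs, 3.31% of the 100-base stretches of Mptx2 occur in Mptx1. Slc30a2, a zinc transporter of Paneth cell granules, was higher in replicate 2, with 36.9 and 152 CPM in WT and 62.6 and 100 CPM in KO.

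The genes with the pattern most like the mean of the 10 were Clca4a, Grin1os, Gcg, Defa26, and Ocm, with a Pearson r of 0.990 to 0.984 over the log2 CPM of 20 libraries. All 20 points share the split between the intestine and other organs, and the r is given without a test. Clca4a was at 981 and 40.2 CPM in WT and at 820 and 26.9 CPM in KO. Gcg, the glucagon gene of enteroendocrine L cells, which are most frequent in the distal gut, was at 40.6 and 1.94 CPM in WT and at 22.1 and 5.03 CPM in KO. Both were highest in replicate 1 of each genotype and near 0 outside the intestine.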

How the data were processed

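RNA-seq libraries were grouped by the organ, genotype, and replicate number in the labels. The authors trimmed reads with cutadapt, mapped them with HISAT2 2.1.0, counted them on exons of GRCm38 genes with featureCounts 2.0.1, and deposited the unscaled counts with the exon length of each gene (a property other than a measurement). GRCh38 is printed in the methods, which also state stranded counting of proper pairs, options that the stored command lacks, so strands may be mixed. Totals were 15897446 to 44508197 counts per library. Intervals and floors cover counting error only, since reads carried no molecular identifiers.

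From these, edgeR 4.0.16 (R 4.3.3) gave TMM-scaled CPM over 20 libraries, and quasi-likelihood tests after filterByExpr within each organ (KO against WT) or over all libraries (organs). TPM is counts per exon length, scaled to a common total. Standard errors are the log2 fold change over the root of F. The paper calls replicates biological. The fits were tested on simulated data. Alternatives were DESeq2 1.42.0, other size factors, filters, and thresholds, 1 fit of all libraries, WT libraries alone, a replicate block, and libraries left out in turn. Python 3.11.15 read sequences from GENCODE transcripts and RefSeq.

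The members and lists were chosen with earlier results of these data known. Named are all members, the 5 most abundant other Defa genes, paralogs, the 3 most abundant genes of the proximal, distal, goblet, crypt, regulator, and smooth muscle lists, and the 5 genes most like the members. Other lists shown are given as sums, with medians and counts of genes for those of enterocytes, plasma cells, and macrophages, and medians for B cells. For the tuft and enteroendocrine list, fold changes of some genes are also given.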

Additional observations from a re-analysis of the deposited data

How the results depend on the processing

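In the small intestine, 0 of the 10 genes were DEGs between KO and WT under every alternative run. Over all genes, DESeq2 called 36 higher and 15 lower where edgeR called 0, and 422 genes had an unadjusted p under 0.05 in edgeR. On simulated counts with 8-fold changes and the same spread for every gene, DESeq2 made 57 false calls beside 112 true ones, edgeR 1 beside 48. When each library was left out, log2 fold changes ranged from -1.32 to 3.24 for Defa17, -9.44 to 5.97 for Defa21, -9.58 to 7.02 for Defa22, -1.92 to 2.12 for Defa24, -2.10 to 2.71 for Defa30, -2.85 to 1.66 for Lyz1, -3.46 to 1.21 for Mmp7, -1.21 to 1.85 for Itln1, 0.54 to 4.03 for Ang4, and -4.90 to 3.39 for Mptx2. A fit on 1 library of a genotype assumes that it varies like the other genotype. Elsewhere the range was -6.17 to 0.45 for Mmp7 in the liver, and -0.50 to 5.93 for Defa22 and -6.44 to 7.08 for Defa24 in the spleen. With the replicate number as a block, Defa24 (0.01), Defa30 (0.23), and Itln1 (0.19) became positive in the small intestine, Lyz1 moved to -0.76 and Mptx2 to -0.92, and no call of a member changed in any organ. The deviations of same-numbered WT and KO libraries from their group means correlated across genes at 0.57 in the small intestine, 0.365 in the heart, 0.126 in the kidney, 0.0376 in the liver, and 0.00707 in the spleen, over 2 pairs each, which does not show that numbers pair animals. The cause of these shifts was not tested. All 10 genes were called higher against the mean of the other organs, and against each organ, under all 26 alternatives. RLE size factors moved the median of all genes in these contrasts by less than 0.1 on the log2 scale. The log2 ratio of the summed genes between replicates was -4.21 in WT and -2.20 in KO, and lay between -4.48 and -4.17 and between -2.34 and -2.20 under other scalings, chosen after seeing the data. Defa21 and Defa22 rest on 14 to 31 counts per library in replicate 2 of the small intestine.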
